A study of Mus musculus with 6 samples.

Results

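The genes described here carry out autophagy and the removal of mitochondria, or switch those genes on. A fixed list of 41 genes was used: the ATG8 family, the ULK1 initiation complex, the class III phosphatidylinositol 3-kinase complex, the lipid effectors, both conjugation systems, the ATG4 proteases, cargo receptors, mitochondrial clearance genes and 3 FoxO factors. A gene was tested if at least 1 of its probes was well above background on 3 or more of the 6 arrays, and the probe with the highest mean signal stood for it. In this way 38 of the 41 genes were tested, among 22133 genes tested in all. Each of the 38 was well above background on all 3 arrays of both groups, and 0 of them was saturated on any array. The probes of Atg4a and Atg4c, which encode 2 of the 4 proteases of the family, and of Foxo1 were well above background on 0 of the 6 arrays.

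RNA came from G1E-ER-GATA-1 cells. This mouse line of erythroid precursors has no GATA-1 of its own, and its GATA-1 is a fusion with the hormone-binding part of the oestrogen receptor. All 6 samples share that genotype and were kept in erythropoietin and Kit ligand, and all had 24 h of ß-estradiol, which switches the fusion protein on. The groups differed in the siRNA that was put in by nucleofection at 0 h and 24 h, either non-targeting (control, 3 arrays) or against Mi2β (knockdown, 3 arrays), and cells were collected at 48 h. Because all samples were treated with ß-estradiol, the values compare maturing cells with more and with less Mi2β, and the response to GATA-1 itself was not analysed here. All samples are of 1 line, and whether replicates were grown as separate cultures is not stated in the labels, so a p-value reflects the spread among these arrays and that spread may be technical. In bulk RNA of this kind, fewer cells with a transcript and less of it per cell cannot be told apart.

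Autophagy encloses part of the cytoplasm in a double membrane that fuses with the lysosome. The ULK1 complex starts the process, the class III kinase makes the lipid signal PI3P at the site, ATG9 vesicles and ATG2 supply membrane lipid, and a conjugation cascade attaches ATG8 proteins to the growing membrane, where cargo receptors dock. Maturing red cells use this route to clear their mitochondria, with the outer-membrane receptor NIX (Bnip3l) in the lead role, and in cells of this type GATA-1 and FoxO3 are known to switch on many of the genes. The siRNA target Mi2β is the product of Chd4 and the motor subunit of NuRD, a chromatin complex that moves nucleosomes and deacetylates histones.

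With Mi2β knocked down, 5 of the 38 genes fell and 0 rose by limma (adjusted p under 0.05, Benjamini-Hochberg over all genes). At an unadjusted p under 0.05 there were 11 lower (28.9%) and 1 higher (2.63%), where 13.4% of all genes were lower and 10.5% higher, and 15.4% and 10.9% of genes well above background on all 6 arrays. The 5 were Foxo3, a forkhead transcription factor of autophagy genes, Atg9a, Atg2a, Atg3 and Pik3r4, and their decreases ran from 0.50 to 0.89 on the log2 scale. Over all genes tested 4.56% fell and 4.99% rose, and among genes well above background on all 6 arrays, as every tested autophagy gene was, 5.29% fell and 5.09% rose, against 13.2% and 0% of the autophagy genes. The median change of the 38 was -0.19 and 32 of them (84.2%) lay below 0, where all genes had a median of -0.03 with 54.5% below 0, and genes well above background on all 6 arrays a median of -0.05 with 58.1% below 0. The siRNA target itself was at 5.93, 6.00 and 5.75 on the control arrays and 4.62, 4.60 and 4.54 on the knockdown arrays, and Chd4 fell by 1.31 (SE 0.10, limma adjusted p = 0.00161), which passed in all 20 alternatives.

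**Figure D1:**
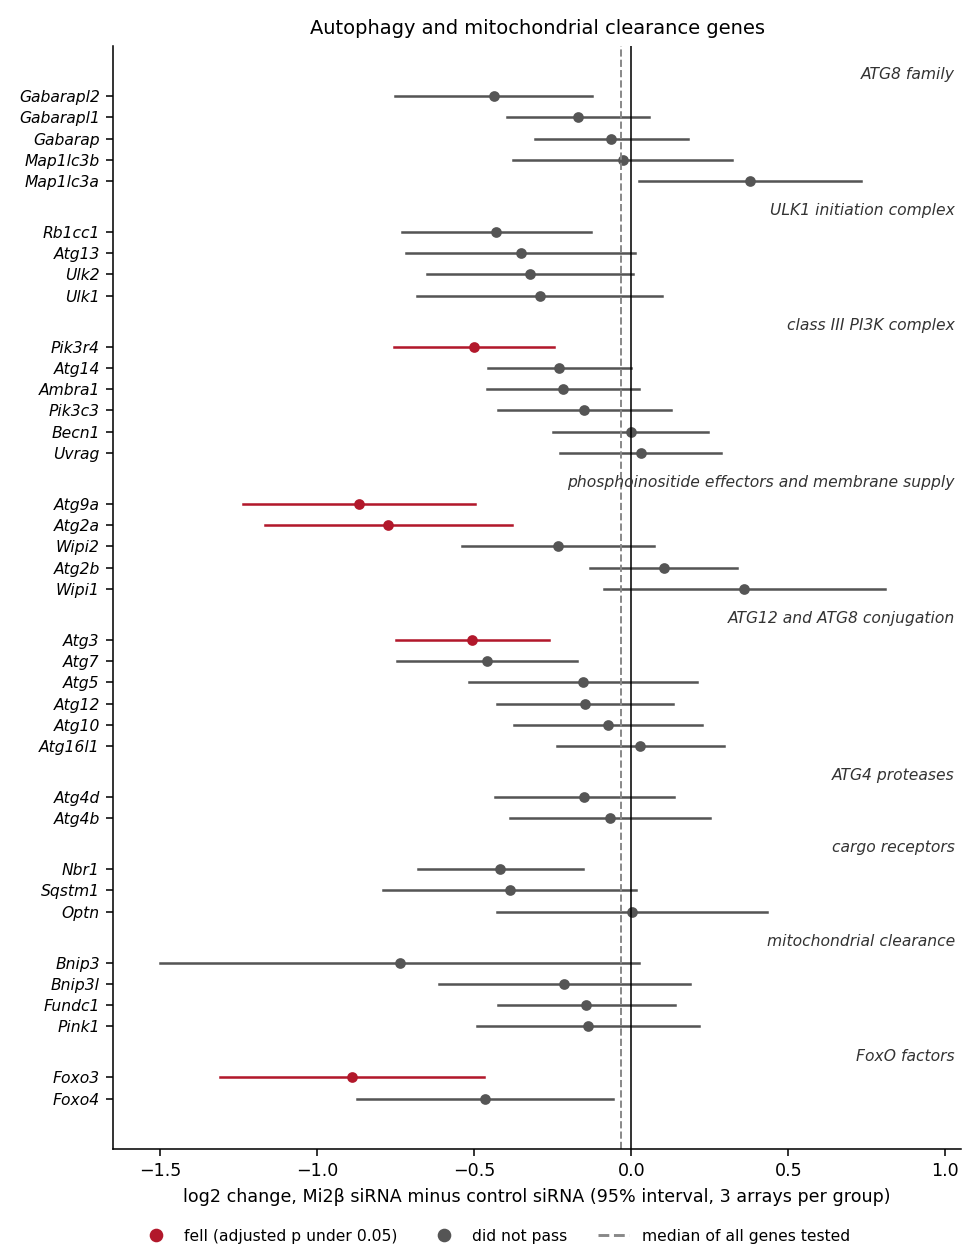
The log2 change (knockdown minus control) of the tested genes, without 1 that is not reported here, is plotted with its 95% interval from 3 arrays per group, ordered by role. The 5 genes that fell are red, most points lie left of 0, and the dashed line marks the median of all genes tested at -0.03.

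The stretch just before the transcription start was read for the genes that fell. Promoters are from RefSeq (GRCm38.p6), 32 of the 41 genes matched, and the 250 bases before the start were searched on both strands for a GATA motif (the word AGATAA, with T also allowed in its first place and G in its last), a FoxO motif (GTAAACA) and an E-box (CACGTG, the core word of lysosomal and autophagy gene elements). Each motif was searched on its own, so a base may count towards more than 1. Atg3, Foxo3 and Atg9a are printed, the first because it is the one gene among those that fell whose window holds any of the motifs, and the other two because they fell the most. Capitals mark the E-box, and each runs 5′ to 3′ on the strand of its gene.
Atg3, chr16:45158579-45158828, plus strand: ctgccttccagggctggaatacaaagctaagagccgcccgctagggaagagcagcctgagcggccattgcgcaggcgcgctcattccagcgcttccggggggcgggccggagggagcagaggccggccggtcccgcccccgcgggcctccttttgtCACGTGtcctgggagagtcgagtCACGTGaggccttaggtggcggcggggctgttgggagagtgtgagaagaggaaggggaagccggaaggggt
Foxo3, chr10:42276696-42276945, minus strand: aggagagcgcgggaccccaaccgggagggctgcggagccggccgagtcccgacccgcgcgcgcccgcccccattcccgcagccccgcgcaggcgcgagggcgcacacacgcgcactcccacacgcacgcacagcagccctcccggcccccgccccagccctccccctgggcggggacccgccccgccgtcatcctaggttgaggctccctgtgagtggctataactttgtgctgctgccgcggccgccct
Atg9a, chr1:75192011-75192260, minus strand: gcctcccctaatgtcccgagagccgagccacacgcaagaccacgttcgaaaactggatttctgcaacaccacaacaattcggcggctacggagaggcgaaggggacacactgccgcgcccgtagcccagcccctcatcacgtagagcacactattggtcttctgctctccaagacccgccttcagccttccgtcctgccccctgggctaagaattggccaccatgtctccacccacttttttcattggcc
Atg3 carries the E-box word at 94 and again at 71 bases before its start. Foxo3, Atg9a, Atg2a and Pik3r4 hold none of the motifs in this window. Motifs were counted by gene, in any of its promoters. The E-box word stood in 4 of the 32 genes (12.5%: Atg3, Atg5, Atg7 and Bnip3) and in 6.86% of 27025 genes with a RefSeq promoter. A GATA motif stood in 4 of 32 (12.5%: Atg4a, Atg4d, Nbr1 and Pink1) against 29.8% of all, and the FoxO motif in 0 of 32 against 3.54% of all. The window of the autophagy genes was richer in G and C, with a median of 58.8% against 52.4% for all promoters. A match describes the letters only, and no match says only that these letters are not in this window.

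Among the FoxO factors, which AKT keeps out of the nucleus and which activate autophagy genes, Foxo3 fell the most of all 38 genes. Levels below are log2 signal relative to the 75th percentile of the same array, so that a level compares arrays for 1 probe and never 1 probe with another. Foxo3 stood at -0.03, -0.02 and 0.20 on control replicates 1 to 3 and at -1.10, -0.91 and -0.52 on knockdown replicates 1 to 3, which are scanner intensities of 362.3, 354.2 and 452.0 against 207.7, 210.5 and 282.3. All 3 knockdown arrays lay below all 3 control arrays, with a mean of 0.05 ± 0.13 (SD, n = 3) against -0.84 ± 0.29 (SD, n = 3). Foxo3 fell by 0.89 (SE 0.17, 95% interval -1.31 to -0.47, limma adjusted p = 0.0301), which is 1.85-fold lower. The probe lies at chr10:41967288-41967347 (minus strand of mm9, the build of all probe positions here). The other Foxo3 probe that passed the detection filter changed by -0.55, which missed the threshold. Adjusted over probes, its limma p was 0.0739, against 0.0352 for the probe above. Foxo4 was dim, at -2.36, -2.64 and -2.95 in control and -3.03, -3.13 and -3.20 in knockdown. Those groups did not overlap, but the change of -0.47 (SE 0.17) did not pass (limma adjusted p = 0.158), and of the other Foxo4 probes one changed by -0.37 and another, well above background on 4 arrays only, by 0.72.

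The proteins that bring membrane to the new autophagosome held 2 of the 5 falls. Atg9a, the multi-spanning scramblase carried by the seed vesicles, was at 2.17, 2.20 and 2.48 on the control arrays and at 1.22, 1.39 and 1.63 on the knockdown arrays. Atg2a, which passes lipid from the endoplasmic reticulum to the growing membrane, was at 2.88, 2.65 and 2.57 and then at 1.84, 1.74 and 2.20. In both genes every knockdown array was below every control array. Atg9a fell by 0.87 (SE 0.15, 95% interval -1.24 to -0.50, limma adjusted p = 0.0213), or 1.83-fold (probe at chr1:75184260-75184319, minus strand), and Atg2a fell by 0.77 (SE 0.16, 95% interval -1.17 to -0.38, limma adjusted p = 0.0375), or 1.71-fold (probe at chr19:6261741-6261800, plus strand). Atg2b, the other ATG2 gene, was at 0.41, 0.33 and 0.30 in control and 0.46, 0.35 and 0.54 in knockdown, a change of 0.10 (95% interval -0.13 to 0.34). Of the PI3P-binding WIPI proteins, Wipi1 was at 1.27, 0.95 and 1.44 in control and 1.42, 1.46 and 1.85 in knockdown, a change of 0.36 (95% interval -0.09 to 0.81, limma adjusted p = 0.304), with all 3 of its probes above 0 (0.16 to 0.36). Wipi2, which recruits ATG16L1, changed by -0.23 (limma adjusted p = 0.329).

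In the class III kinase complex, Pik3r4, the VPS15 subunit that holds the kinase VPS34 in place, was the 1 of 6 genes that fell. It was at 2.18, 2.32 and 2.34 on the control arrays and at 1.82, 1.66 and 1.86 on the knockdown arrays. The groups did not overlap, and the decrease of 0.50 (SE 0.10, 95% interval -0.75 to -0.25, limma adjusted p = 0.0372) is 1.42-fold. Its probe lies at chr9:105589596-105589655, plus strand. Pik3c3, the VPS34 kinase itself, changed by -0.15 and Becn1, the Beclin 1 scaffold, by -0.00 (95% interval -0.25 to 0.24). Atg14, which directs the complex to autophagy, changed by -0.23 and Ambra1, its regulator, by -0.22, both lower on all knockdown arrays and neither past the threshold (limma adjusted p = 0.204 and 0.251). Uvrag, the alternative partner of Beclin 1, changed by 0.03. The median of the 6 was -0.18.

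Of the genes that attach ATG8 and ATG12 to their targets, Atg3, the E2-like enzyme that hands ATG8 to its lipid, fell. Its control values were the tightest of the falling genes, at 2.66, 2.65 and 2.69, and the knockdown arrays gave 2.28, 2.04 and 2.15. These groups lay apart, with a decrease of 0.51 (SE 0.10, 95% interval -0.75 to -0.26, limma adjusted p = 0.0312), or 1.42-fold. Its probe lies at chr16:45183811-45183870, plus strand. Atg7, the E1-like enzyme that acts before it, was lower on all 3 knockdown arrays, at 1.59, 1.25 and 1.48 against 1.94, 1.91 and 1.84, but its change of -0.46 (SE 0.12) missed the threshold (limma adjusted p = 0.0667). The other 4 were nearer to 0 and their groups overlapped: the ATG12 conjugation partner Atg5 at -0.15, Atg12 itself at -0.15, the E2-like Atg10 at -0.07 and the scaffold Atg16l1 at 0.03. The ATG4 proteases, which trim ATG8 and release it again, changed by -0.15 (Atg4d) and -0.07 (Atg4b), with overlapping groups.

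**Figure D2:**
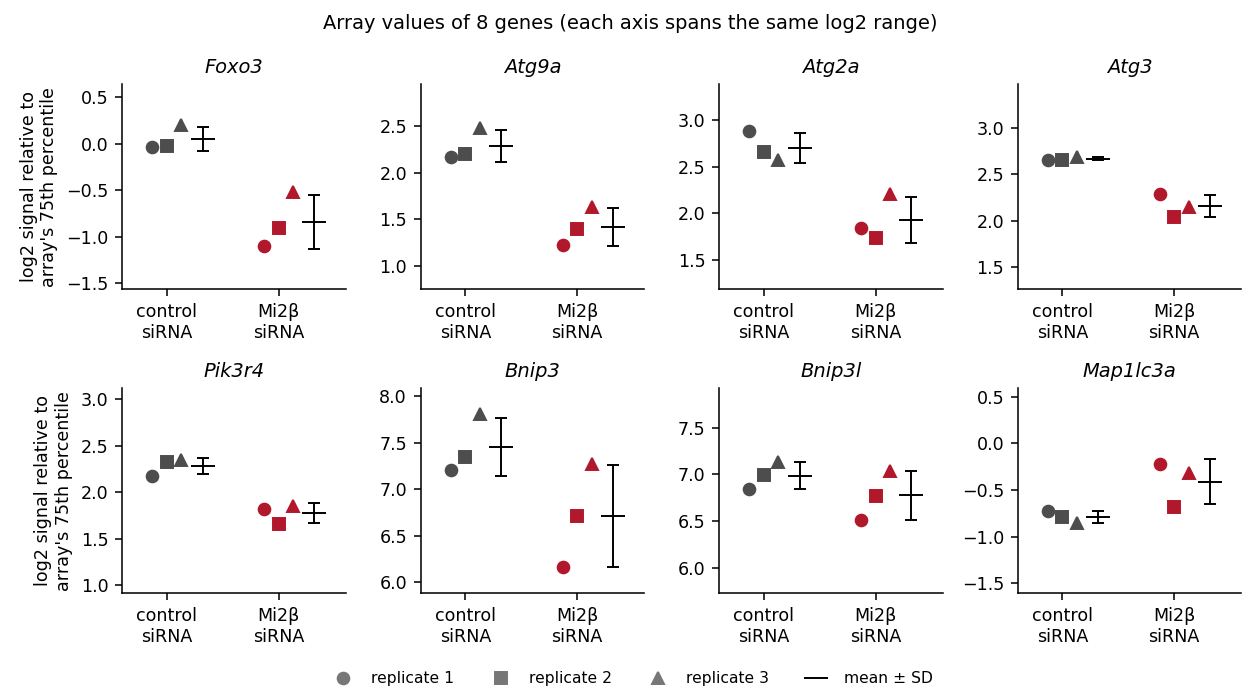
Each panel gives the value of 1 gene on all 6 arrays (log2 signal relative to the array's 75th percentile), with control siRNA in grey, Mi2β siRNA in red, a marker shape per replicate and bars for mean ± SD; the panels span equal ranges but start at different levels. For Foxo3, Atg9a, Atg2a, Atg3 and Pik3r4 all red points lie below all grey points, for Bnip3 and Bnip3l they overlap, and for Map1lc3a all red points lie above.

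The ULK1 complex, which starts autophagy, had all 4 of its genes below 0 with a median of -0.34, and by limma 0 of them fell (1 at an unadjusted p under 0.05). Rb1cc1, the FIP200 scaffold, changed by -0.43 (SE 0.12, limma adjusted p = 0.0906), with knockdown lower on all arrays, and its 2 probes gave -0.43 and -0.42. Atg13, the bridging subunit, changed by -0.35 and Ulk2 by -0.32 (limma adjusted p = 0.221 and 0.217). The kinase gene Ulk1 was at 4.58, 4.65 and 4.67 in control and 4.16, 4.19 and 4.67 in knockdown. Here knockdown replicate 3 was at the control level and the other two were below it, a change of -0.29 (95% interval -0.68 to 0.10, limma adjusted p = 0.338).

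The ATG8 family, the ubiquitin-like proteins that coat the autophagosome, had changes on both sides of 0, with a median of -0.06, and by limma 0 of its 5 genes fell or rose (1 lower and 1 higher at an unadjusted p under 0.05). Gabarapl2, also called GATE-16, was at 5.55, 5.65 and 5.32 in control and 5.07, 4.94 and 5.19 in knockdown. Gabarapl1 was at 6.91, 7.10 and 7.004 and then at 6.81, 6.84 and 6.85. Both were lower on all 3 knockdown arrays, by -0.44 (SE 0.13, limma adjusted p = 0.0972) and -0.17 (SE 0.092, limma adjusted p = 0.338). Gabarap, which gives that branch of the family its name, was at 6.46, 6.37 and 6.25 against 6.30, 6.23 and 6.36, a change of -0.06 (95% interval -0.31 to 0.18). Map1lc3b, whose protein LC3B is the usual marker of autophagosomes, was at 4.99, 5.001 and 4.75 against 4.84, 4.71 and 5.11, a change of -0.03 (95% interval -0.38 to 0.32). In both of these the groups overlapped. Map1lc3a, which encodes LC3A, was the 1 gene of the 38 with every knockdown array higher, at -0.22, -0.69 and -0.32 against -0.72, -0.79 and -0.85, a change of 0.38 (SE 0.14) that did not pass (limma adjusted p = 0.183).

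The genes that mark mitochondria for removal were all 5 below 0, with a median of -0.14, and by limma 0 of 5 fell (0 at an unadjusted p under 0.05). Bnip3, an outer-membrane receptor for ATG8 proteins, lay farthest below 0 of the group and had the widest knockdown spread. It was at 7.21, 7.35 and 7.81 in control and 6.16, 6.71 and 7.27 in knockdown, so that knockdown replicate 3 stood above control replicate 1. The change was -0.74 (SE 0.31, 95% interval -1.50 to 0.02, limma adjusted p = 0.222), and its 3 probes gave -0.74 to -0.86. The Bnip3 probes outside the count, at -0.86 and -0.81, had an unadjusted limma p of 0.0290 and 0.0294 (adjusted over probes 0.162 and 0.163). Bnip3l, the NIX receptor of reticulocytes, was at 6.84, 6.99 and 7.13 against 6.51, 6.77 and 7.04, also with overlap. Its change was -0.21 (SE 0.16, 95% interval -0.61 to 0.19, limma adjusted p = 0.502), and its 4 probes gave -0.27 to -0.13. In both receptors replicate 3 was the highest array of its group and replicate 1 the lowest. Fundc1, another receptor of that membrane, changed by -0.14 (95% interval -0.43 to 0.14) and the damage-sensing kinase gene Pink1 by -0.14 (95% interval -0.49 to 0.22).

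Of the 3 cargo receptors, which hold ubiquitin-tagged cargo against ATG8, Nbr1 was at 1.54, 1.51 and 1.64 in control and 1.08, 1.06 and 1.299 in knockdown, a change of -0.42 (SE 0.11, limma adjusted p = 0.0678). The groups lay apart, and the change missed the threshold. Sqstm1, which encodes p62, changed by -0.39 (SE 0.16, limma adjusted p = 0.223) on its brighter probe and by 0.15 on its other probe, so the probes disagreed in sign. Optn, encoding optineurin, changed by 0.00 (95% interval -0.43 to 0.43). Of 15 genes with more than 1 passing probe, the probes shared a sign in 11 and differed in 4, among them Gabarap, Sqstm1 and Foxo4.

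Seen across all 38 genes, in 15 (39.5%) all knockdown arrays lay below all control arrays, in 1 (2.63%) all lay above, and in 22 the groups overlapped. Over all genes tested 18.4% lay below in this way and 12.7% above. The distance from control differed between the arrays. Relative to each gene's control mean, the median of the 38 was -0.20, -0.28 and -0.11 on knockdown replicates 1 to 3, and 31, 34 and 25 of the genes were below their control mean there. The same median over genes well above background on all 6 arrays was -0.07, -0.02 and -0.08, so that on knockdown replicate 3 the autophagy genes lay close to the rest and on knockdown replicate 2 farthest from them. Knockdown replicate 2 held the lowest value of 19 of the 38 genes. It also had the highest share of probes well above background, 74.0%, against 61.3% and 48.5% on the other knockdown arrays and 53.1% to 56.5% on the control arrays; the part of this in the result was not tested. The median SD within a group was 0.12 in control and 0.13 in knockdown for these genes. For genes well above background on all 6 arrays it was 0.16 and 0.13.

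**Figure D3:**
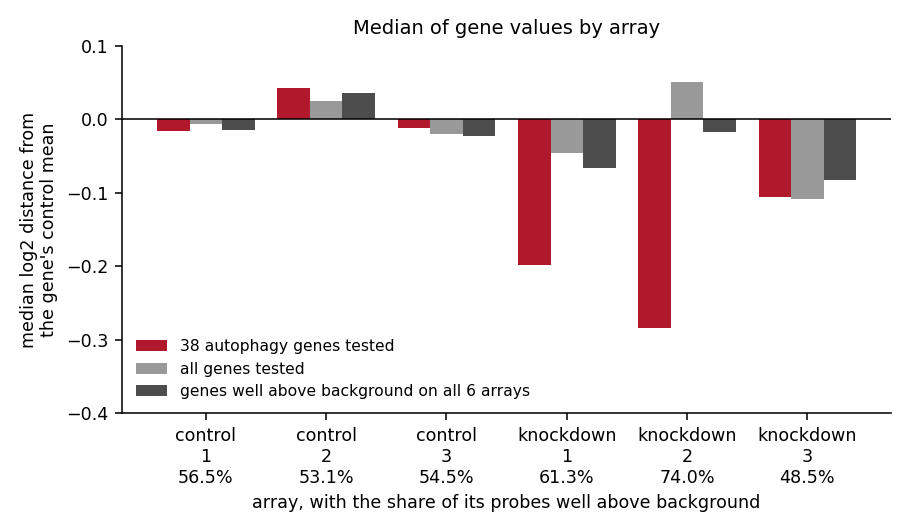
Bars give, for each array, the median log2 distance of genes from their own control mean, for the 38 autophagy genes, all genes tested and genes well above background on all 6 arrays; the share of probes well above background stands under each array. The autophagy bars reach -0.20, -0.28 and -0.11 on the knockdown arrays, and on knockdown replicate 3 the 3 bars are of near equal height.

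All 6 arrays lay on 1 slide, with replicates 1 and 2 of both groups in its first row and replicate 3 of both in its second. Within the first row the median change of the 38 genes was -0.30 with 33 below 0, where genes well above background on all 6 arrays had -0.05. Within the second row, with 1 array a group and so no test, it was -0.07 with 21 below 0, where those genes had -0.06. In the 5 genes that fell the groups did not overlap, so each was bound to be lower in both rows, and only the sizes inform. The first and second row gave -0.97 and -0.72 for Foxo3, -0.88 and -0.85 for Atg9a, -0.98 and -0.37 for Atg2a, -0.49 and -0.54 for Atg3, and -0.51 and -0.48 for Pik3r4. With the row as a block, Foxo3 and Atg9a fell (limma adjusted p = 0.0159 and 0.0119), and Atg2a, Atg3 and Pik3r4 did not pass (0.0615, 0.0596 and 0.0567). In the first row alone, with 2 arrays a group, 0 of the 38 passed by limma, where 1.02% of all genes fell, and the adjusted p of the 5 was 0.0511 to 0.156. At an unadjusted p under 0.05, 15 of the 38 were lower and 0 higher in that row, against 11.6% and 12.2% of all genes.

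The 5 calls changed with single arrays and with the scaling. Leaving out any 1 array other than knockdown replicate 3 left 0 of them past the threshold by limma, with 8 to 12 genes lower at an unadjusted p under 0.05 (9.31% to 14.1% of all genes), and leaving out knockdown replicate 3 left Atg2a, Atg9a and Foxo3; scaling by the array median, which moves the median of all genes to -0.27, or dropping the detection filter also left 0 (5 and 10 lower at an unadjusted p under 0.05, where 7.41% and 6.78% of all genes were). Over 20 alternatives the change of each kept its sign, with limma adjusted p from 0.00376 to 0.104 for Foxo3, 0.00186 to 0.0897 for Atg9a, 0.00458 to 0.150 for Atg2a, 0.00686 to 0.410 for Atg3 and 0.00879 to 0.417 for Pik3r4. As their groups did not overlap, leaving out arrays or adding a block could not have changed the sign.

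**Figure D4:**
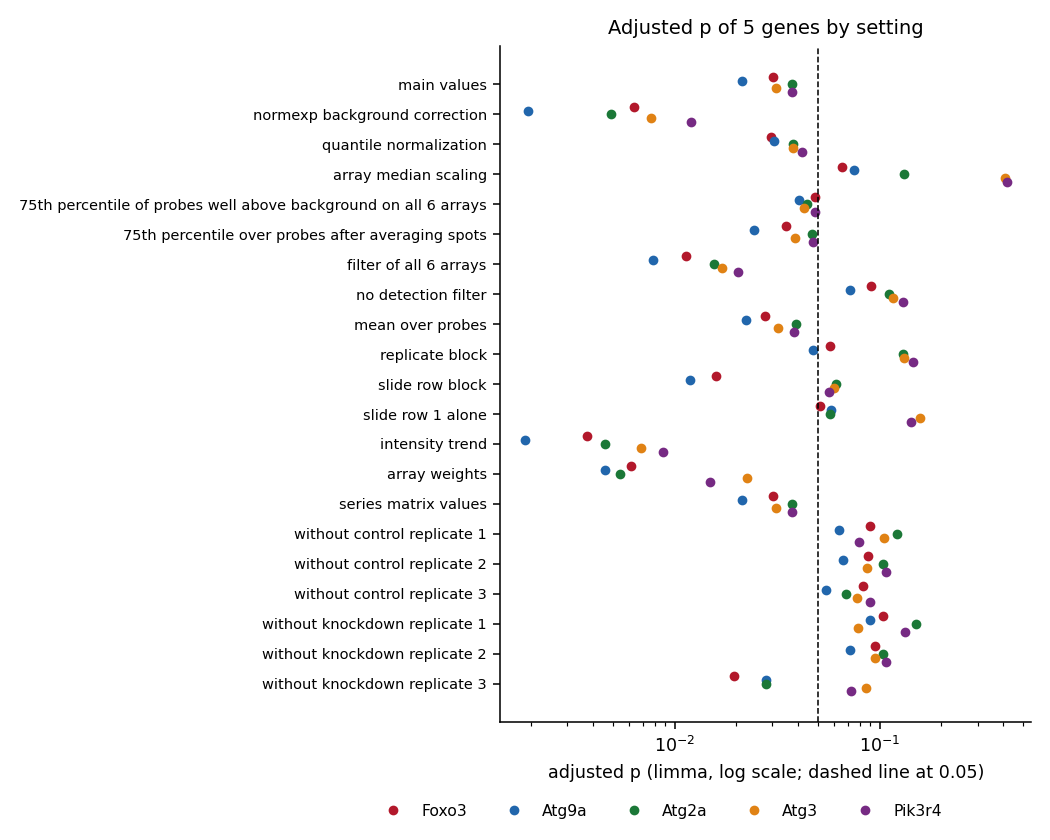
Points give the limma adjusted p (log axis) of Foxo3, Atg9a, Atg2a, Atg3 and Pik3r4 under the reported setting and each of 20 alternatives, with the threshold of 0.05 dashed. Most points for the runs that leave out 1 array lie to the right of the line, and those for normexp, an intensity trend and array weights lie to the left.

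The wider pathway was followed in 5 lists of genes outside the 41, with 113 of 130 listed genes tested. In all 2 rose and 8 fell, and their median change was -0.08 with 64.6% below 0. The shares of all genes to read these lists against are 4.99% that rose and 4.56% that fell, and at an unadjusted p under 0.05 10.5% higher and 13.4% lower. Among 21 tested genes of the remaining core machinery, 3 fell and 1 rose, with a median of -0.07. Tecpr1, a lysosomal tether of autophagosomes, fell by 0.76 (SE 0.11, limma adjusted p = 0.0102), the lipid scramblase gene Tmem41b fell by 0.71 (SE 0.13, adjusted p = 0.0256) and the lysosomal SNARE gene Vamp8 fell by 0.48 (SE 0.097, adjusted p = 0.0356). Stx17, the SNARE of the finished autophagosome that pairs with it, rose by 0.57 (SE 0.085, limma adjusted p = 0.0126), at 1.55, 1.53 and 1.49 in control and 2.05, 2.08 and 2.15 in knockdown. The 2 SNARE genes of 1 fusion step thus changed in opposite directions, on groups that did not overlap. Leaving out 1 array at a time, Tecpr1 passed in 5 of 6 runs (limma adjusted p = 0.0640 without knockdown replicate 1), Stx17 in 4 (0.0525 without control replicate 1 and 0.0692 without knockdown replicate 1), Tmem41b in 2 (up to 0.113, without knockdown replicate 1) and Vamp8 in 0 (0.0609 to 0.132). Tmem41b and Vamp8 also missed the threshold with the slide row as a block.

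Of 26 tested genes of selective autophagy and mitophagy outside the 41, 1 fell and 0 rose by limma (2 lower and 2 higher at an unadjusted p under 0.05), with a median of -0.09. The gene that fell was Marchf5, a ubiquitin ligase of the outer mitochondrial membrane, at 4.62, 4.62 and 4.60 in control and 3.91, 3.98 and 4.04 in knockdown, a decrease of 0.63 (SE 0.086, limma adjusted p = 0.00934). In the mTORC1 and AMPK pathway, which holds autophagy back or starts it by nutrient state, 1 of 32 tested genes fell and 1 rose, with a median of -0.06. Prkab2, a regulatory subunit of AMPK, fell by 0.76 (SE 0.091, limma adjusted p = 0.00647). Deptor, an inhibitor of mTOR, rose by 1.17 (SE 0.24, limma adjusted p = 0.0352) from a dim control signal that was well above background on 2 of the 3 control arrays. Over 19 alternatives its change ran from 0.29 to 1.44, and it passed in 7 (limma adjusted p up to 0.656). It did not pass with normexp background correction, quantile normalization, an intensity trend or the mean over probes. Leaving out 1 array at a time, Prkab2 passed in 6 of 6 runs, Marchf5 in 5 (limma adjusted p = 0.0640 without knockdown replicate 1) and Deptor in 1, without knockdown replicate 3 (0.0733 to 0.116 in the others).

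Since Foxo3 fell, the genes around FoxO were set beside it. Of 18 tested kinases, phosphatases and partners that act on FoxO proteins, by limma 0 fell and 0 rose (4 lower and 1 higher at an unadjusted p under 0.05), and their median was -0.04. The FoxO kinase genes Akt1 and Akt2 changed by 0.13 and -0.07. Of 17 tested FoxO target genes, 3 fell (17.6%, against 4.56% of all genes) and 0 rose by limma (against 4.99%), with a median of -0.32 and 13 below 0. At an unadjusted p under 0.05 there were 7 lower (41.2%, against 13.4%) and 0 higher (against 10.5%). Trp53inp1, a stress protein that binds ATG8, was at 1.19, 1.26 and 1.25 in control and 0.33, 0.50 and 0.78 in knockdown and fell by 0.70 (SE 0.14, limma adjusted p = 0.0309). G6pc3, a glucose-6-phosphatase, fell by 0.52 (SE 0.081, adjusted p = 0.0151), and Ccnd2, cyclin D2, fell by 0.65 (SE 0.10, adjusted p = 0.0144). FoxO proteins are known to repress Ccnd2, unlike most of the list. The counts of falls therefore pool genes on which FoxO acts in opposite directions. Whether any of these genes followed Foxo3 was not tested. Leaving out 1 array at a time, Trp53inp1 passed in 1 of 6 runs, without knockdown replicate 3, and Ccnd2 and G6pc3 in 2 each, without replicate 3 of either group for Ccnd2 and without control replicate 2 or 3 for G6pc3. The highest limma adjusted p of these runs, always without knockdown replicate 1, was 0.109, 0.0703 and 0.0859. Targets that did not pass included the cell cycle inhibitors Cdkn1b at -0.59 and Cdkn2d at -0.42, the oxidant enzyme gene Cat at -0.18 and Sod2 at 0.22.

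**Figure D5:**
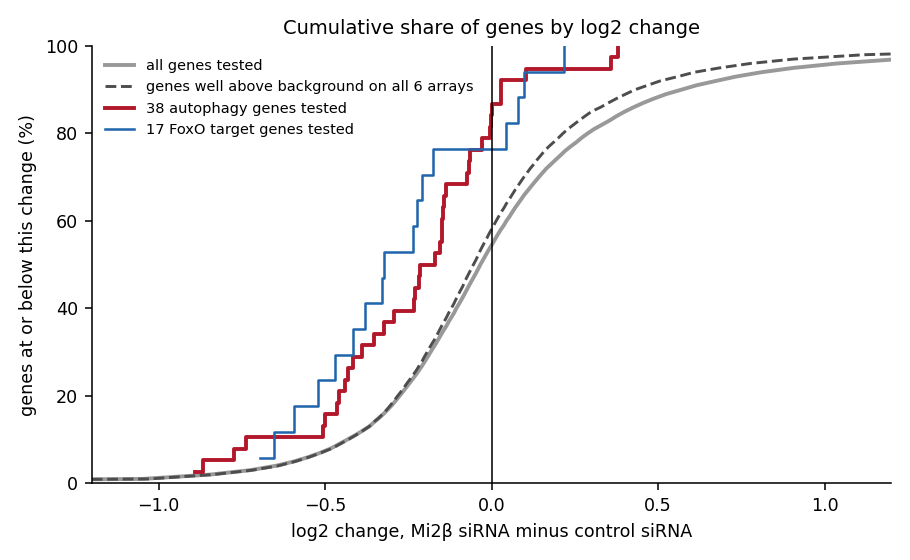
Curves give the share of genes (percent, vertical) at or below each log2 change (knockdown minus control, horizontal) for all genes tested, genes well above background on all 6 arrays, the 38 autophagy genes and 17 FoxO target genes. At 0 the curves stand at 54.5%, 58.1%, 84.2% and 76.5%.

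Markers of the cells were measured beside these genes. All 10 erythroid markers were well above background on all arrays. Their summed signal (linear, in multiples of the array's 75th percentile) was 1608 to 1742 in control and 2081 to 2296 in knockdown. Each such sum is weighted towards its brightest probes, here Hba-a1 (change of 0.09) and Hbb-bt (0.81). Hbb-bt, Alas2 and Epb42 rose and Slc4a1 fell. The median change of the 10 was 0.10, with 7 above 0 and 3 below. Epb42 was dim, at scanner intensities of 19.8, 21.7 and 23.2 in control and 94.9, 67.6 and 98.3 in knockdown. Of 7 megakaryocyte markers 5 were tested and Pf4, Gp9 and Gp1ba fell, Gp5 changed by -0.41 (limma adjusted p = 0.105), Ppbp was well above background on 0 arrays, and the sum was 40.6 to 46.1 in control and 15.7 to 20.1 in knockdown. Itga2b was dim, at scanner intensities of 38.6, 16.4 and 19.5 in control and 64.3, 85.1 and 71.1 in knockdown, and differed the other way from the 4 other tested markers of the list. All knockdown arrays lay above the control arrays, and the change of 1.51 (SE 0.35) missed the threshold (limma adjusted p = 0.0508) but passed in 7 of 20 alternatives. Of 8 mast cell and basophil markers 5 were tested, Mcpt4 and Hdc rose, and the sum was 1.09 to 1.31 in control and 3.40 to 3.91 in knockdown, while the defining Mcpt8, Fcer1a and Ms4a2 were well above background on 0 arrays. The myeloid sum (5 of 9 tested, without Lyz2 and Ly6g) was 148 to 187 in control and 159 to 168 in knockdown, and the lymphoid sum (3 of 8 tested, without Ms4a1) was 9.001 to 10.6 and 8.27 to 9.51. Leaving out 1 array at a time, Gp1ba passed in 1 of 6 runs (without knockdown replicate 3), Slc4a1 in 3 and Hbb-bt in 5 (not without knockdown replicate 1), Slc4a1 failing without control replicate 1 or 2 or knockdown replicate 1, and the highest limma adjusted p of these runs was 0.0907, 0.0533 and 0.0545. The part of these marker differences in the autophagy gene values was not tested.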

How the data were processed

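RNA of 6 samples was labelled with Cy3 from 0.1 µg each and hybridised to 1-colour Agilent arrays. The deposited values are linear intensities of spots, and the file headers name Agilent Feature Extraction 10.7.3.1, which subtracted the background; arrays were not normalized to each other. Limma is named too, in the submitters' processing notes, and its settings were not given in the sources used here. A deposited table of linear, uncentred values repeats these intensities and served as an alternative.

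Each array had 62976 spots. Control and outlier-flagged spots were left out, spots of a probe were averaged as log2, and each array's 75th percentile was subtracted. Of 55681 probes, 31895 were well above background on at least 3 arrays, and the brightest stood for its gene. Groups were compared with limma 3.58.1 under R 4.3.3, using lmFit and eBayes without covariates. Two-sided p-values were adjusted over 22133 genes by Benjamini-Hochberg, with a threshold of 0.05. Rose and fell are used only of genes past it. The fit was tested on simulated data. In arrays the number of arrays limits the precision.

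Gene symbols of the array design were updated through RefSeq accessions (GRCm38.p6; 27509 of 29150 probes matched). Probe positions in the files are on mm9. The exon under a probe is not given.

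The 41 genes, the pathway and marker lists and the alternatives were chosen with earlier results of these data known. Named with values by array are genes past the threshold, the 3 largest rises and falls, the ATG8 family, Bnip3, Bnip3l, Ulk1 and the FoxO factors, and from each pathway list at most 4 genes past the threshold; a few further genes were named after their values were seen. Alternatives covered background correction, scaling, the detection filter, the probe for a gene, blocks for slide row and replicate number, the spread model, the value table and leaving out each array. Single values of 2 listed genes are not reported here; counts and medians include them.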

Additional observations from a re-analysis of the deposited data

How the results depend on the processing

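The count of 5 autophagy genes that fell and the median of -0.19 over all 38 were recomputed in 20 settings. By limma, 8 fell with normexp background correction, 9 with an intensity trend in the spread, 11 with array weights (with Map1lc3a rising, 1 gene), 2 with the slide row as a block, and 0 with array median scaling, without a detection filter, or in the first slide row alone. Atg7, Nbr1, Gabarapl2 and Rb1cc1 gained calls in 2 to 4 settings each, and Atg14, Bnip3, Foxo4 and Map1lc3a with array weights only. The median was -0.42 with array median scaling, where all genes had -0.27, and -0.30 in the first row; it lay below that of all genes under every scaling tried (-0.11 against -0.05 with quantile normalization, -0.11 against 0.04 with the 75th percentile of probes well above background on all 6 arrays). Leaving out 1 array gave 0 to 3 falls and medians of -0.25 to -0.16.

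The pathway lists, with 2 rises and 8 falls, gave 4 and 15 with normexp, 4 and 18 with an intensity trend, 7 and 25 with array weights, 0 and 0 by limma with array median scaling (2 higher and 11 lower at an unadjusted p under 0.05) and in the first row alone (2 and 22), and 0 and 3 without a detection filter. Rises were 1 with the filter of all 6 arrays and 1 with the mean over probes. Leaving out 1 array gave 0 to 2 rises and 1 to 8 falls.

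With the replicate number as a block, 1 autophagy gene fell (Atg9a), and the lists had 1 rise and 0 falls by limma (21 lower at an unadjusted p under 0.05). Same-numbered arrays correlated at 0.21, -0.32 and 0.13 in their deviations, and differently numbered ones at -0.41 to 0.32. With 3 arrays a group these values cannot decide whether the number pairs them.

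Over all genes, 1105 rose and 1010 fell. With the slide row as a block 1008 rose and 793 fell. The counts were 1415 and 1662 with normexp, 1518 and 1788 with an intensity trend, 2180 and 2549 with array weights, 496 and 335 with array median scaling, 661 and 332 without a filter, 494 and 226 in the first row, 502 and 183 with the replicate block, and 557 to 898 and 256 to 681 leaving out 1 array. With the 75th percentile of probes well above background on all 6 arrays 1416 rose and 831 fell, and with that percentile taken after averaging spots, a setting chosen after seeing the data, 1126 and 890. The cause was not tested for any of these moves. No gene named as risen or fallen changed sign in any setting. Where groups do not overlap, leaving out arrays or adding a block cannot change the sign. With array median scaling Hbb-bt, Alas2 and Gp1ba did not pass (limma adjusted p = 0.596, 0.309 and 0.272).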

Other observations

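Related genes of a pair were compared within each array, where a scaling factor of the array cancels. The 8 pairs were chosen after the values were seen, and with 3 arrays against 3 the exact two-sided permutation test cannot go below p = 0.10. The log2 difference of Atg2a to Atg2b changed by -0.88 from control to knockdown, with knockdown arrays at -0.97, -0.97 and -0.69 relative to the control mean and control arrays between -0.09 and 0.11 (exact p = 0.10, adjusted over the pairs 0.20). The difference of Wipi1 to Wipi2 was higher by 0.59 and that of Map1lc3a to Map1lc3b by 0.41, and that of Bnip3 to Bnip3l changed by -0.52, each with groups that did not overlap (exact p = 0.10 each, adjusted 0.20). Gabarapl1 to Gabarapl2 (0.27), Foxo3 to Foxo4 (-0.42), Atg4b to Atg4d (0.08) and Ulk1 to Ulk2 (0.03) had groups that overlapped, and the exact p was 0.20 to 0.80. The direction was the same in all 20 alternatives for every pair but Ulk1 to Ulk2 (15 of 20), though a change of scaling factor alone could not alter it.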
